A study of Mus musculus with 104 samples.

Results

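The comparison described here is that of bone marrow-derived macrophages (BMDMs) lacking Smad4 and given DLL4 for 24 h with the same cells left untreated. It rests on 4 of the 104 RNA-seq libraries of a mouse series on how liver signals shape Kupffer cells, the resident macrophages of liver sinusoids. The members were chosen by their labels alone, 2 libraries of DLL4-treated and 2 of untreated Smad4 knockout BMDMs, and all 24940 listed genes were examined. Macrophages were grown from bone marrow for 4 days. The knockout cells are labelled Smad4 flox/flox Clec4f-cre +/-, whereas the series design names LysM-cre for BMDMs. Clec4f drives expression in Kupffer cells and LysM (Lyz2) in myeloid cells in general, and which Cre was present cannot be settled from these files. The control BMDMs are Smad4 flox/flox without a Cre label, so both genotypes carry the floxed allele. The same table holds, for each genotype, pairs of libraries given DLL4 with DAPT, TGF-beta, or DLL4 with TGF-beta, each for 24 h, in all 20 libraries of 10 groups. The untreated labels give no time. No label ties a library to a mouse or a culture. The p-values therefore measure only the spread between the 2 libraries of a group, shared over the 10 groups, which may be technical.

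DLL4 is a ligand of Notch receptors that is shown on the surface of neighbouring cells, in liver by sinusoidal endothelium. Its binding lets gamma-secretase release the receptor's intracellular domain, which joins the DNA-binding protein RBPJ in the nucleus and turns on genes such as Hes1. DAPT is an inhibitor of gamma-secretase. SMAD4 is the shared partner of the receptor-activated SMADs through which TGF-beta and BMP signals act, and in the series the DLL4 and TGF-beta signals were tried together on cells with and without it.

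Smad4 RNA was reduced but not absent in the libraries labelled knockout. It stood at 10.5 and 9.90 TPM (a transcript level scaled for length and depth) in the untreated and at 9.96 and 10.2 in the DLL4 knockout libraries. Across the table, the 10 knockout libraries held 8.52 to 11.3 TPM and the 10 control libraries 20.4 to 26.5, with no overlap and a 2.40-fold ratio of means. These sums over exons do not show which exons were read, so they do not measure how much full-length message was left. DLL4 itself left Smad4 at a log2 difference of -0.02 ± 0.08 (SE) (limma adjusted p = 0.89). The 4 libraries held 13922920 to 16789590 recovered reads, within the 8378095 to 18250507 of the table. All 12 macrophage markers listed were detected and tested, with summed levels of 15600 to 15750 TPM untreated and 17920 to 17930 with DLL4. Mertk and C1qa were called higher, where 2.21% of all tested genes were. At any fold 5 of the 12 were higher and 3 lower at a limma adjusted p below 0.05. Over all 10267 tested genes 1877 were higher and 2478 (24.1%) lower by this rule. Of the markers of other cells, the neutrophil list of 15 genes summed to 2903 and 3097 TPM untreated and 3249 and 3854 with DLL4, all 15 were detected, and 1 was called higher. For lymphocytes, 12 of 20 listed genes were under 1 TPM in all 4 libraries and Gzma was at 0, and the list summed to 99.6 to 113 TPM over the 4 libraries. The erythroid and megakaryocyte list summed to 568.4 to 661.1 TPM and the dendritic cell list to 239 to 265. Endothelial genes summed to at most 17.9 TPM with Emcn and Cldn5 at 0. The part of these levels in the results below was not tested.

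DLL4 changed 348 of 10267 tested genes in Smad4 knockout BMDMs. Of these, 227 rose (2.21% of genes tested) and 121 fell (1.18%; 197 by limma-voom on recovered reads), at a limma adjusted p (Benjamini-Hochberg, over all tested genes) below 0.05 and a difference of at least 2-fold on the log2(TPM + 1) scale. The size of the response was uneven, since 52 genes rose and 10 fell by 4-fold or more, while the median over tested genes was -0.035. Each value below comes from 2 libraries a group. In bulk RNA, fewer cells of a kind and less RNA per cell cannot be told apart.

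The genes that rose most included the Notch target Hes1 and a set of secreted, surface and nuclear proteins of macrophages. Dnase1l3, a secreted DNase that digests DNA in apoptotic particles, had the largest difference. It was at 0.251 and 0.253 TPM untreated and 24.0 and 25.0 with DLL4, a log2 difference of 4.35 ± 0.10 (SE) (limma adjusted p = 3.8e-12). The rise was from near absence, with 10 and 12 reads untreated against 1039 and 992. Hes1, a repressor of the basic helix-loop-helix family and the best known Notch target, went from 0.256 and 0.647 to 13.0 and 13.0 TPM, by 3.28 ± 0.18 (SE) (adjusted p = 8.9e-09). Spic, the transcription factor of red pulp and other iron-recycling macrophages, went from 1.18 and 2.60 to 29.9 and 30.0 TPM, by 3.47 ± 0.24 (SE) (adjusted p = 1.1e-07). In each of these genes both DLL4 libraries lay far above both untreated ones, and the rule that picked the genes allowed no overlap. Asb2, a substrate-recognition subunit of a ubiquitin ligase, rose from 0.345 and 0.204 to 12.3 and 11.6 TPM. For these low starting levels the log2(TPM + 1) scale understates the change, and limma-voom on recovered reads gave log2 differences of 6.54 for Dnase1l3 and 5.43 for Asb2. Mmp14, a membrane-anchored matrix metalloproteinase, rose from 10.4 and 12.4 to 93.9 and 89.2. Clec4n (Dectin-2), a receptor for fungal mannans, had the highest level of the group, 52.2 and 52.0 TPM untreated and 382 and 411 with DLL4. Itga9, an integrin subunit, rose from 4.59 and 4.50 to 38.8 and 37.1 TPM, and Adgre4, an adhesion receptor of nonclassical monocytes, from 1.09 and 1.23 to 13.9 and 14.5. Ocstamp, needed for osteoclast fusion, rose from 3.75 and 4.43 to 34.0 and 32.5 TPM and Ddit4, an inhibitor of mTORC1, from 1.27 and 1.25 to 14.9 and 14.5. The others of the 15 largest were Apol7c, Abcg3, Pxdc1, Spint1 and Sema6d, at log2 differences of 4.15, 3.97, 3.50, 3.18 and 2.88. Apol7c and Abcg3 belong to families of similar genes, and how reads were split among copies is not known.

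The largest fall among named genes was that of Ccl2. This chemokine, which draws CCR2+ monocytes, fell from 25.6 and 41.9 TPM untreated to 1.60 and 1.86 with DLL4, a log2 difference of -3.63 ± 0.53 (SE) (limma adjusted p = 0.00011). Its untreated libraries differed from each other by more than its DLL4 libraries did. Spp1 (osteopontin), a secreted matrix protein, was among the most abundant messages and fell from 1976 and 1923 to 509.9 and 505 TPM, a log2 difference of -1.94 ± 0.09 (SE) (adjusted p = 1.2e-09). Ccnd1 (cyclin D1), which drives entry into the cell cycle, fell from 94.6 and 107 to 21.98 and 23.3 TPM. Mt2, a metallothionein that binds zinc and copper, went from 11.7 and 14.1 to 1.55 and 4.56 TPM, with a wide gap between the DLL4 libraries. Pcdh7, a protocadherin, fell from 29.2 and 32.3 to 5.44 and 6.05 TPM, and Nes, an intermediate filament protein, from 10.3 and 11.6 to 1.96 and 1.99. Usp18, which removes ISG15 and damps interferon signalling, fell from 14.1 and 14.8 to 3.78 and 4.92 TPM. The remaining genes of the 15 were Serpinb9b, Nanos1, Flrt2, Uchl1, Slc2a6, Olfm1, Eps8 and Oraov1, at log2 differences between -2.18 and -1.53.

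With DAPT added to DLL4, Dnase1l3, Hes1 and Mt2 stood close to their untreated levels, Ocstamp below its untreated level and Nes close to its DLL4 level. The DLL4 libraries are shared by this contrast and the one above, so the values are given side by side without a count of matches. Dnase1l3 was at 0.423 and 0.374 TPM with DLL4 and DAPT, Hes1 at 0.865 and 0.441 and Spic at 3.11 and 4.31. The log2 differences of DAPT added to DLL4 were -4.19 for Dnase1l3, -3.10 for Hes1 and -2.73 for Spic (limma adjusted p = 6.4e-12, 2.7e-08 and 1.9e-06). Ocstamp was at 1.36 and 1.74 TPM with DAPT, under both untreated libraries. Of the genes that fell with DLL4, Mt2 was at 11.9 and 12.9 TPM and Ccl2 at 13.8 and 17.6, above the DLL4 libraries. Nes stayed low, at 2.37 and 3.14 TPM (limma adjusted p = 0.47 for DAPT). Spp1 was at 884 and 768 TPM, between the DLL4 and untreated levels.

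**Figure D1:**
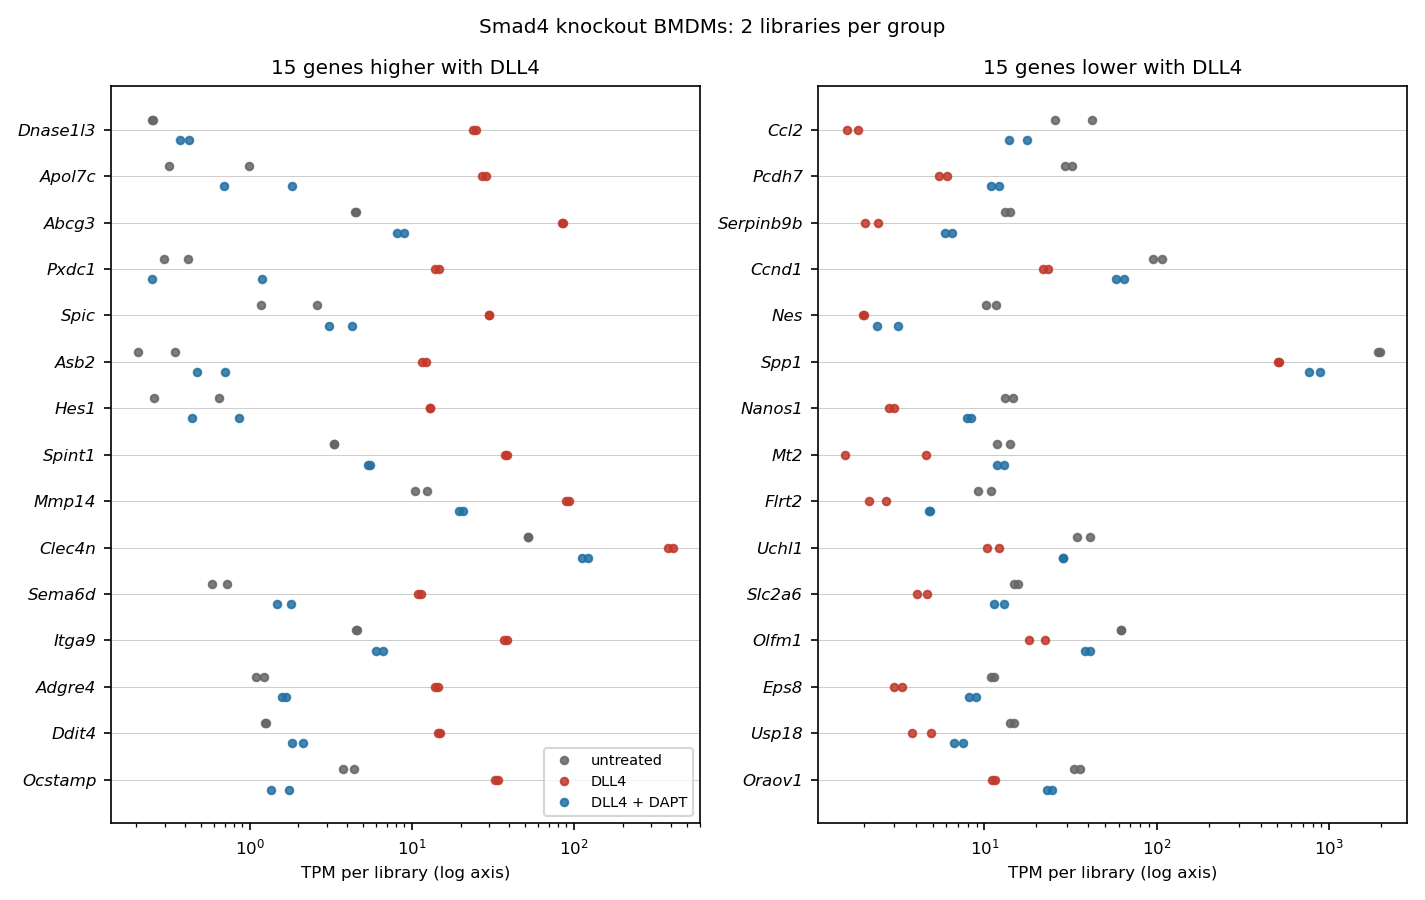
Levels per library (TPM, log axis) of the 15 genes with the largest rise (left) and fall (right) in Smad4 knockout BMDMs, 2 libraries per group, in untreated, DLL4 and DLL4 with DAPT cultures. The genes were picked to have no overlap between DLL4 and untreated libraries. With DAPT, Dnase1l3 and Hes1 lie below 1 TPM like the untreated libraries, while Nes stays near its DLL4 level.

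Among Notch pathway genes few changes reached 2-fold. Of 24 listed Notch targets 12 passed the filter, 1 rose (Hes1) and 1 fell (Ccnd1), where 2.21% and 1.18% of all tested genes did. The median log2 difference was 0.35 against -0.035 over all tested genes. At any fold 5 of the 12 were higher and 1 lower at a limma adjusted p below 0.05. By this rule 1877 of all 10267 tested genes were higher and 2478 lower. Notch1, a receptor that is also a target, was at 16.7 and 16.1 TPM untreated and 30.4 and 26.6 with DLL4, and Dtx4, a Deltex ubiquitin ligase, went from 26.0 and 25.4 to 45.4 and 41.2. Both differences were under 2-fold (0.76 and 0.73, limma adjusted p = 9.2e-05 and 5.4e-06). Other textbook targets were hardly detected. Nrarp, a feedback inhibitor, was at 0.108 and 0.121 and then 0.563 and 0.506 TPM (3 and 4 reads against 17 and 14). Its log2 difference of 0.46 (limma adjusted p = 0.085) is pulled in by the pseudocount. Hey1 had 0 and 1 reads untreated and 7 and 4 with DLL4, Heyl 0 and 1 against 11 and 6, and Ptcra 0 and 1 against 10 and 8. Hes5 was at 0 in all 4 libraries, and Hey1, Heyl, Ptcra and Hes5 were below the filter and not tested. Of the 37 tested receptors, ligands and processing genes, 10 were higher and 5 lower at a limma adjusted p below 0.05 at any fold. At 2-fold 0 rose and 1 fell, Jag1, itself a Notch ligand, from 23.2 and 24.8 to 11.3 and 11.0 TPM (log2 difference -1.04). Jag1 lies near the 2-fold limit and came to -0.99 without untreated replicate 2.

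MHC class II genes rose together. Class II molecules show peptides to CD4+ T cells, and their genes share one promoter layout, read by a complex that needs the coactivator CIITA. Of 10 tested genes 9 rose, where 2.21% of all tested genes did. The median log2 difference was 1.66 against -0.035 over all tested genes. Ciita was at 3.06 and 2.94 TPM untreated and 26.7 and 24.5 with DLL4, a log2 difference of 2.73 ± 0.08 (SE) (limma adjusted p = 2.2e-11). H2-Ab1, a chain of I-A, went from 73.7 and 73.7 to 369.8 and 372 TPM, by 2.31 ± 0.08 (SE), and its partner H2-Aa from 112 and 105.5 to 449.7 and 466, by 2.06 ± 0.07 (SE). H2-Eb1, of I-E, went from 56.2 and 54.0 to 207 and 209 TPM. Cd74, the invariant chain that guards the peptide groove, had the highest level, 415 and 397 TPM untreated and 1354 and 1310.3 with DLL4. The genes of the peptide-loading factor DM moved with them, H2-DMa from 23.0 and 21.2 to 70.2 and 68.3 TPM and H2-DMb1 from 23.7 and 28.4 to 73.2 and 75.1. In all of these the 2 libraries of a group were close. The groups did not overlap, which held for every called gene. H2-DMb2 and H2-Oa were low, 0.356 and 1.70 against 3.06 and 3.94 TPM and 0.621 and 0.747 against 2.29 and 3.03, and each missed the threshold without 1 library. H2-DMb2 came to a log2 difference of 0.73 (limma adjusted p = 0.067) without untreated replicate 1 and H2-Oa to 0.97 (0.044) without DLL4 replicate 2, and limma-voom gave 1.98 and 1.87. H2-DMb1 and H2-DMb2 are close copies whose reads may not be split surely. H2-Ob was at 1.39 and 1.49 TPM untreated and 2.30 and 2.45 with DLL4, a log2 difference of 0.47 under the 2-fold limit, and H2-Eb2 was below the filter.

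**Figure D2:**
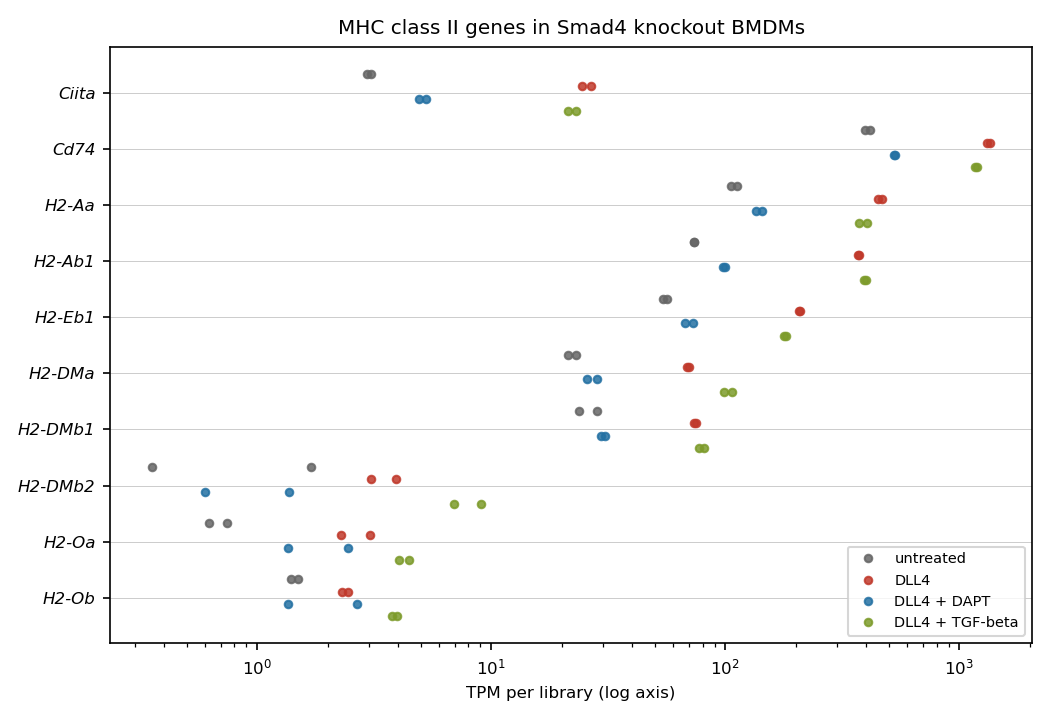
Levels per library (TPM, log axis) of the 10 tested MHC class II genes in Smad4 knockout BMDMs, 2 libraries per group, untreated or given DLL4, DLL4 with DAPT, or DLL4 with TGF-beta. From Ciita to H2-DMb1 the DLL4 libraries lie right of the untreated ones and the DAPT libraries lie closer to the untreated ones, with Ciita at 5.25 and 4.91 TPM.

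The sequences before the start sites of the class II genes are shown because 1 promoter word recurs in them. RefSeq promoter windows (GRCm38.p6, the NCBI name of the mm10 build) were present for 8 of the 11 listed class II genes, and H2-Ab1, Cd74 and Ciita had no entry. The word TGATTGG, the core of the Y box (CCAATCA on the other strand), was searched on both strands in the 250 bases before each start site. It was chosen after the class II values were known. It was found in 7 of the 8 genes and in 7.23% of all 32851 windows. The 6 tested genes that hold it are shown from 130 to 21 bases before the RefSeq start, 5' to 3', with the word in capitals.
H2-Aa, chr17:34287844-34287953, minus strand: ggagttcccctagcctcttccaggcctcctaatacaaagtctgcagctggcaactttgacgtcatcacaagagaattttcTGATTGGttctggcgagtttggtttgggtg
H2-Eb1, chr17:34305737-34305846, plus strand: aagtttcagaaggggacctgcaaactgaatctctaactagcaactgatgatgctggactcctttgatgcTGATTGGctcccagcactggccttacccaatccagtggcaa
H2-DMb1, chr17:34153061-34153170, plus strand: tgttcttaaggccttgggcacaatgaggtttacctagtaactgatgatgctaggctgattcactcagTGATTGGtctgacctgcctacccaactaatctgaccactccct
H2-DMb2, chr17:34145119-34145228, plus strand: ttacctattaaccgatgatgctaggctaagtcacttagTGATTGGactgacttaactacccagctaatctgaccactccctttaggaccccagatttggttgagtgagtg
H2-Oa, chr17:34092249-34092358, plus strand: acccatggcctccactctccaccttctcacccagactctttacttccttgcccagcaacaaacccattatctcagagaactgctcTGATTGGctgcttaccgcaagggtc
H2-Ob, chr17:34238775-34238884, plus strand: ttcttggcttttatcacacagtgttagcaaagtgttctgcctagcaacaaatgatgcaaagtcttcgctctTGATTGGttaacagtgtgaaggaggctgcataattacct
In each the word reads in the direction of the gene and begins 45 to 92 bases before the RefSeq start, nearest in H2-Oa and farthest in H2-DMb2. The transcripts used for expression start further downstream in H2-DMb2 (167 bases) and H2-Aa (52 bases). H2-Ob holds the word and was not called, and H2-DMa rose without it in either of its windows. The match is a description of these letters.

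Genes that define Kupffer cells rose in part. Of 31 listed Kupffer identity genes 24 passed the filter, 11 rose and 2 fell, where 2.21% and 1.18% of all tested genes did. The median log2 difference was 0.68 against -0.035 over all tested genes. Genes low untreated, such as Clec4f and Timd4, could pass the filter through libraries where they were high, so these figures lean towards risers. Slc40a1 (ferroportin), the iron exporter, was the most abundant of these risers, at 104 and 105 TPM untreated and 629 and 628 with DLL4, by 2.57 ± 0.10 (SE) (limma adjusted p = 1.8e-10). Nr1h3 (LXR-alpha), the nuclear receptor for oxysterols and desmosterol on which Kupffer identity depends, went from 9.45 and 8.55 to 39.5 and 39.1 TPM, by 2.01 ± 0.15 (SE) (adjusted p = 2.4e-07). Cd207 (langerin), a lectin, went from 6.20 and 4.96 to 33.1 and 32.9 TPM. The lectin Clec4f and the phosphatidylserine receptor Timd4, markers of resident Kupffer cells, came up to low levels only. Clec4f was at 0.155 and 0.423 and then 4.59 and 4.16 TPM (4 and 13 reads against 129 and 107), and Timd4 at 0.342 and 0.612 and then 3.38 and 3.65. On this scale their log2 differences of 2.07 and 1.62 are pulled in by the pseudocount, and limma-voom on recovered reads gave 3.95 and 2.86. Marco, a scavenger receptor, rose from 24.3 and 23.4 to 58.7 and 66.4 TPM, and Hpgd, which degrades prostaglandins, from 25.3 and 25.1 to 85.8 and 82.7. Il18bp and Fcna also rose, Fcna with unequal DLL4 libraries (27.1 and 18.1 TPM) and a log2 difference of 0.88 without DLL4 replicate 1. Folr2, a folate receptor of resident macrophages, fell from 706 and 685 to 341 and 350.0 TPM and Fabp7 from 48.6 and 46.7 to 17.5 and 22.01. Folr2 lies at the 2-fold limit and came to -0.99 without DLL4 replicate 1 or untreated replicate 1, and to -0.98 with quantile normalization. Cd163, the haemoglobin scavenger receptor, was at 4.95 and 4.65 TPM untreated and 5.22 and 6.16 with DLL4 and was not called, Vsig4 was under 1 TPM in all 4 libraries and not called, and C6 and Nr1h4 were at 0.

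RBPJ binds a site with the core TGGGAA, which reads TTCCCA on the other strand, and both were searched in the 250 bases before each start. Of the 15 largest risers 11 had a RefSeq window, Dnase1l3, Hes1, Clec4n and Ocstamp had none, and 2 of the 11 held the word, Pxdc1 and Sema6d. It was in 15.4% of their 13 windows, in 24.4% of the 221 windows of all risers and in 21.6% of all 32851 windows. The longer word GTGGGAA, with TTCCCAC as its other strand, was in 7.69%, 3.62% and 5.42% of these. The stretches below are shown because they hold the core word before 3 genes that rose, Nr1h3 with one match on each strand, Clec4f with one, and Pxdc1 with a pair, the first of them as the longer word. Bases are 5' to 3' along the gene with the core word in capitals.
Nr1h3, chr2:91195167-91195266, minus strand: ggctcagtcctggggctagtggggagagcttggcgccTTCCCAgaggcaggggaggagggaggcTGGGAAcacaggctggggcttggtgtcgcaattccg
Clec4f, chr6:83656117-83656196, minus strand: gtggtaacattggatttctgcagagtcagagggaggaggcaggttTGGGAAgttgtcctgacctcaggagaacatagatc
Pxdc1, chr13:34652702-34652931, minus strand: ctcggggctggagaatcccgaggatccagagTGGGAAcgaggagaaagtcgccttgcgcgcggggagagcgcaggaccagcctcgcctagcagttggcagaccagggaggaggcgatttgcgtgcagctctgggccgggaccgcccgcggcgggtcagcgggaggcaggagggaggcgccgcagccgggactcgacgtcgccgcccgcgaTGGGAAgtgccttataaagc
In Nr1h3 the words begin 113 and 86 bases before the start, in Clec4f 35, and in Pxdc1 219 and 40. Nr1h3 has another RefSeq start, before which the same words begin 194 and 167 bases. The share among risers lies close to that of all windows.

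Other lists of monocyte and macrophage genes also held risers, where 2.21% of all tested genes rose and 1.18% fell. Of 21 tested nonclassical monocyte genes 6 rose and 1 fell. Besides Hes1 and Adgre4 these were Treml4 (15.9 and 16.7 to 65.8 and 66.0 TPM), the integrin subunit Itgal (40.7 and 38.4 to 156 and 154), Gngt2 and Pou2f2 up, and the transcription factor Klf4 down (7.58 and 7.87 to 2.89 and 2.72). Of 26 macrophage transcription factors 3 rose (Spic, Nr1h3 and Runx3) and 1 fell (Klf4). Runx3 went from 3.05 and 3.69 to 24.0 and 21.4 TPM. Of 12 microglia-type genes 3 rose, the purinergic receptors P2ry12 (12.7 and 11.8 to 34.8 and 36.6 TPM) and P2ry13 (6.53 and 6.86 to 38.1 and 36.2) and Fcrls. The LXR target list gained 4 of 18, namely Nr1h3, Mertk, Mylip and Abca1. Abca1, the cholesterol exporter, rose from 22.1 and 20.5 to 44.5 and 43.6 TPM and came to a log2 difference of 0.96 without untreated replicate 2 and 1.00 without DLL4 replicate 1, the latter just under the limit. Of 23 cholesterol synthesis genes 0 were called, and their median was -0.06. Of 22 scavenger and apoptotic-cell receptors 5 rose, among them Fcgr2b, the inhibitory Fc receptor (24.3 and 22.8 to 110.2 and 124 TPM), and the TAM receptors Mertk (26.8 and 24.5 to 72.6 and 68.8) and Axl (32.8 and 31.4 to 76.3 and 67.8).

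Of 17 chemokines with values 8 passed the filter, of which 3 fell (Ccl2, Ccl7 and Ccl9) and 1 rose (Cxcl16). Over all tested genes 1.18% fell and 2.21% rose, the shares to set beside each list of this paragraph. Ccl7, another CCR2 ligand, fell from 5.01 and 9.22 to 0.429 and 0.468 TPM (log2 difference -2.44, and -3.80 by limma-voom), and Ccl9 from 222 and 254 to 92.1 and 98.7. Cxcl16, the membrane-bound ligand of CXCR6, rose from 114 and 114 to 257 and 246 TPM. Of 13 chemokine receptors 2 rose, Cxcr4 (88.1 and 81.1 to 267 and 251 TPM) and Ccr1 (24.7 and 29.6 to 64.2 and 76.7). Of 12 tested genes of matrix metalloproteinases and their inhibitors 3 rose, where 2.21% of all tested genes did, Mmp14, Mmp13 (36.7 and 46.1 to 189 and 187 TPM) and Mmp9 (21.9 and 25.6 to 79.8 and 77.2). Of 12 osteoclast genes 3 rose, Ocstamp, Mmp9 and Acp5, the tartrate-resistant phosphatase (24.0 and 23.6 to 152 and 146 TPM). Il1b (1.66 and 1.05 to 9.67 and 7.85 TPM), Cxcl10 and Nfkbiz rose among 15 inflammatory genes, and Cxcl10 came to a log2 difference of 1.00, just under the limit, without DLL4 replicate 1. Of 12 amino-acid stress genes 4 rose, among them Slc7a11, the cystine importer (3.90 and 4.18 to 21.4 and 20.8 TPM), and Sesn2 (10.3 and 10.8 to 27.7 and 27.1). Of 18 lipid-associated macrophage genes 0 rose and 2 fell, Spp1 and Ctsl, a lysosomal protease (479 and 485 to 183 and 185 TPM).

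The remaining lists are given beside the shares over all tested genes, of which 2.21% rose and 1.18% fell. Of 17 classical monocyte genes 2 rose, Cd244 (1.95 and 2.02 to 17.2 and 16.8 TPM) and Gpr141, and 2 fell, Fn1 and S100a4, a calcium-binding protein (1898 and 1810.3 to 842 and 910.5 TPM), at a log2 difference of -1.08 that came to -0.92 with quantile normalization. Of 12 complement genes C1qa, a chain of C1q, rose from 867 and 872 to 1781 and 1716 TPM, at a log2 difference of 1.01 that came to 0.98 without DLL4 replicate 1. Of 11 genes of arginine use and alternative activation Clec7a (Dectin-1), a receptor for beta-glucan, rose from 70.7 and 73.8 to 168 and 167 TPM. Of 14 immediate-early genes Ier3 rose, from 16.6 and 16.7 to 40.8 and 38.2 TPM. Of 21 glycolysis and hypoxia genes 0 were called, and the median log2 difference was -0.29. Among markers of other cells, Csf3r, the G-CSF receptor of neutrophils, went from 22.3 and 22.2 to 47.1 and 46.6 TPM, Cd4 from 2.47 and 2.18 to 10.9 and 11.1, and Pecam1, of endothelium and leukocytes, from 1.32 and 1.50 to 5.23 and 6.63. Of the 5 tested dendritic cell genes Cd207 rose, and of the 3 stromal, 3 erythroid, 1 mast cell and 1 osteoblast or adipocyte genes tested 0 were called.

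Cell cycle genes were lower as a group. Of 29 tested 0 rose and 8 fell by 2-fold or more, where 1.18% of all tested genes fell. At any fold 27 were lower at adjusted p below 0.05, where 24.1% of all tested genes were. The median log2 difference was -0.80 against -0.035. Replication genes fell most after the cyclins Ccnd1 and Ccne2. Pcna, the clamp of DNA polymerase, went from 365 and 384 to 147 and 162 TPM, a log2 difference of -1.27 ± 0.13 (SE) (limma adjusted p = 5.1e-06). Mcm6, of the replicative helicase, went from 155 and 152 to 63.8 and 63.5 TPM and Rrm2, of ribonucleotide reductase, from 89.6 and 94.5 to 38.8 and 38.6. Mitotic genes were also lower at under 2-fold, such as Mki67 (138 and 127 TPM untreated, 83.5 and 80.3 with DLL4) and Top2a (148 and 144 and then 85.1 and 87.4), with log2 differences of -0.69 and -0.75. With DAPT beside DLL4 these stood at 256 and 267 TPM for Pcna, 141 and 142 for Mki67 and 142 and 141 for Top2a. Mki67 and Top2a were thus at or close to their untreated levels and Pcna in between. Mcm3 lies at the 2-fold limit and came to -0.99, -0.95 and -0.99 without DLL4 replicate 2, without untreated replicate 1 and with quantile normalization.

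**Figure D3:**
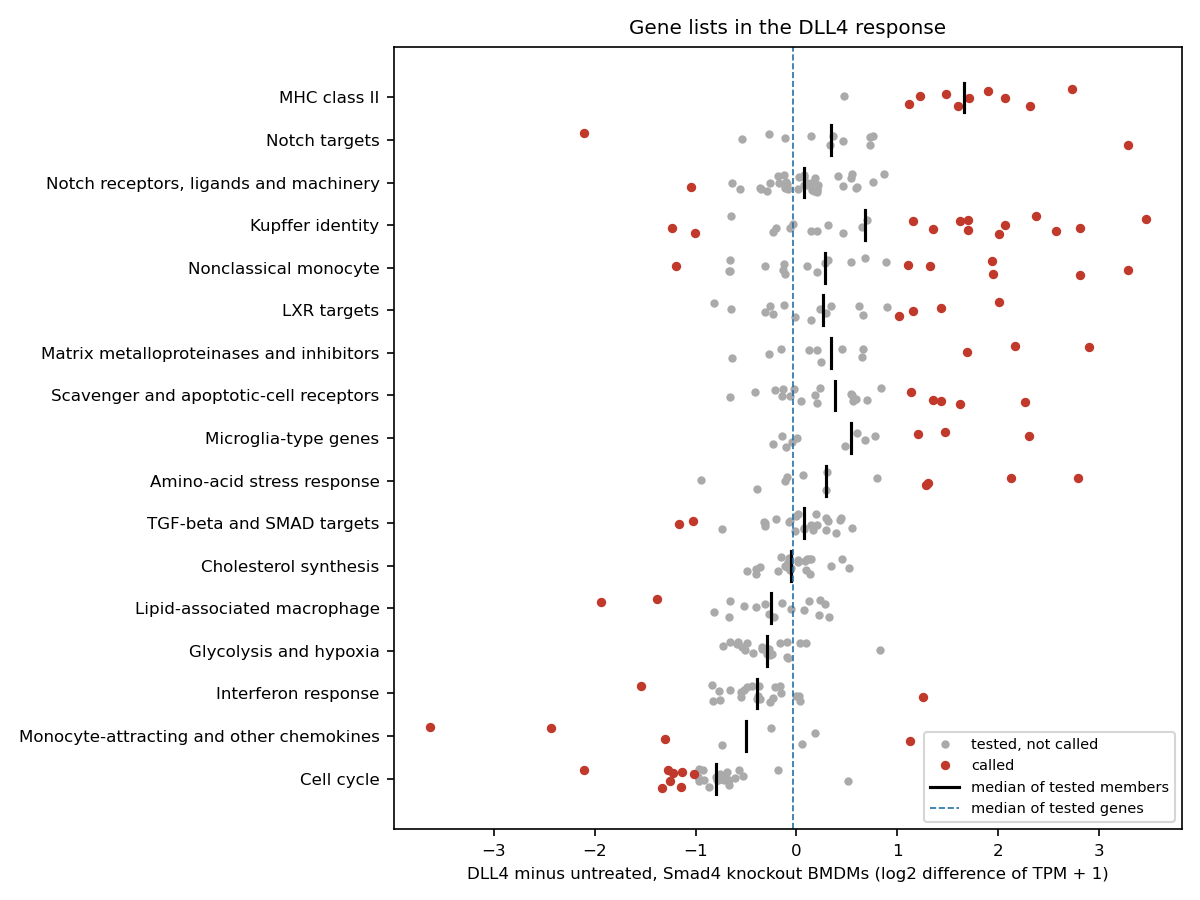
Log2 difference of DLL4 minus untreated in Smad4 knockout BMDMs for the tested members of 17 gene lists (points, called genes in red), with each list's median (black bar) and the median of tested genes (dashed, -0.035). MHC class II members lie right of zero, cell cycle members lie left of it apart from Ccnd2, and the other lists straddle it. Called genes in these range from 0 in cholesterol synthesis and in glycolysis and hypoxia to 11 higher and 2 lower in Kupffer identity.

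Both TGF-beta lists held called genes, where 2.21% of all tested genes rose and 1.18% fell. Of 25 tested SMAD targets 0 rose and 2 fell, Fn1 (fibronectin, 7.84 and 7.90 to 2.96 and 2.96 TPM) and Ahnak (211 and 210.2 to 105 and 100.2), the latter at -0.99 without DLL4 replicate 2. Of 14 ligands, receptors and SMADs 3 rose, which were Tgfb1 (273 and 264 to 570.9 and 525 TPM), the type I receptor Tgfbr1 (52.2 and 53.9 to 138 and 136) and Gdf15 (13.5 and 12.5 to 33.1 and 30.9). Tgfb1 came to 0.96 without DLL4 replicate 1 and to 1.00, just under the limit, without untreated replicate 2. In the knockout libraries given TGF-beta beside DLL4, Dnase1l3 was at 81.9 and 75.4 TPM, Pxdc1 at 52.8 and 52.4 and Spint1 at 130.2 and 123, above DLL4 alone (limma adjusted p = 3.8e-07, 0.00012 and 4.1e-06). Adgre4 and Timd4 were below DLL4 alone, at 4.75 and 3.97 TPM for Adgre4 and 0.940 and 1.07 for Timd4 (adjusted p = 1.2e-05 and 0.0017), and Hes1 was at 17.0 and 13.8 TPM (adjusted p = 0.51).

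The response was then set against that of Smad4 control BMDMs, in which DLL4 raised 297 genes (2.89% of those tested) and lowered 120 (1.17%). No library is shared between these comparisons. Of the 227 genes that rose in knockout cells 201 also rose in control cells, 88.5% of the knockout and 67.7% of the control risers. Of the 121 that fell 59 also fell in control cells, 48.8% and 49.2% of the 2 lists. No gene was called in opposite directions. In the test of the difference between genotypes, limma called 0 genes at 2-fold or more (0% of 10267), with 843 at an unadjusted p below 0.05. Limma-voom on recovered reads called 1. At any fold 5 genes passed (0.0487%), against 24 by limma-voom and 30 with the untreated and DLL4 libraries alone. The 5 were named after their values were seen.

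In all 5 the log2 response was lower in knockout than in control cells. Itgax (CD11c), an integrin subunit, was at 97.7 and 104 TPM untreated and 122 and 123 with DLL4 in knockout cells, and at 46.1 and 42.3 and then 87.6 and 96.5 in control cells, a difference in log2 response of -0.76 ± 0.10 (SE) (limma adjusted p = 0.024). Mmp12, the macrophage elastase, was at 781 and 892 TPM untreated and 897 and 919 with DLL4 in knockout cells and at 401 and 389 and then 675 and 712 in control cells (-0.69 ± 0.10 (SE), adjusted p = 0.026). Tifab, a TIFA-related signalling protein, rose in both genotypes, from 45.0 and 44.3 to 150.0 and 146 TPM in knockout and from 22.2 and 21.1 to 115 and 117 in control cells (-0.66 ± 0.09 (SE), adjusted p = 0.024). Mical1, an actin oxidase, was at 31.8 and 31.99 TPM untreated and 53.2 and 53.3 with DLL4 in knockout and at 17.4 and 16.3 and then 43.0 and 44.0 in control cells (-0.60 ± 0.09 (SE), adjusted p = 0.024). In Itgax, Mmp12, Tifab and Mical1 the untreated knockout libraries already lay above the untreated control libraries. Atp2a3, a calcium pump of the endoplasmic reticulum, was at 20.5 and 19.9 TPM untreated and 13.7 and 14.3 with DLL4 in knockout and at 19.5 and 19.2 and then 20.3 and 20.8 in control cells (-0.58 ± 0.08 (SE), adjusted p = 0.024). Of the 8 untreated and DLL4 libraries of both genotypes, each was left out in turn, and the 5 calls were lost each time except without knockout DLL4 replicate 2.

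Hes1 reached 13.0 and 13.0 TPM with DLL4 in knockout cells and 22.1 and 21.1 in control cells, a difference in log2 response of -0.91 ± 0.26 (SE) that did not pass (limma adjusted p = 0.31). Adgre4 differed by -0.96 ± 0.19 (SE) (adjusted p = 0.092), with 13.9 and 14.5 TPM against 17.5 and 20.3. Ccl7 and Ccl2 differed by 2.24 ± 0.57 (SE) and 1.20 ± 0.75 (SE) (adjusted p = 0.25 and 0.75), with untreated Ccl2 at 25.6 and 41.9 TPM in knockout and 107 and 162 in control cells. A p above the threshold does not show equal responses. For the class II gene H2-Aa the difference was 0.00 ± 0.09 (SE), from 116 and 109 to 471 and 476 TPM in control cells. Cell cycle genes had a median log2 response of -0.80 in knockout and -0.51 in control cells, with 8 and 2 of 29 called lower. The smallest adjusted p of the difference between genotypes among these 29 was 0.26, so none passed. The response was lower in knockout than in control cells in all 29. These signs come from the same few libraries and are not independent of each other, and the share over all tested genes was not counted.

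**Figure D4:**
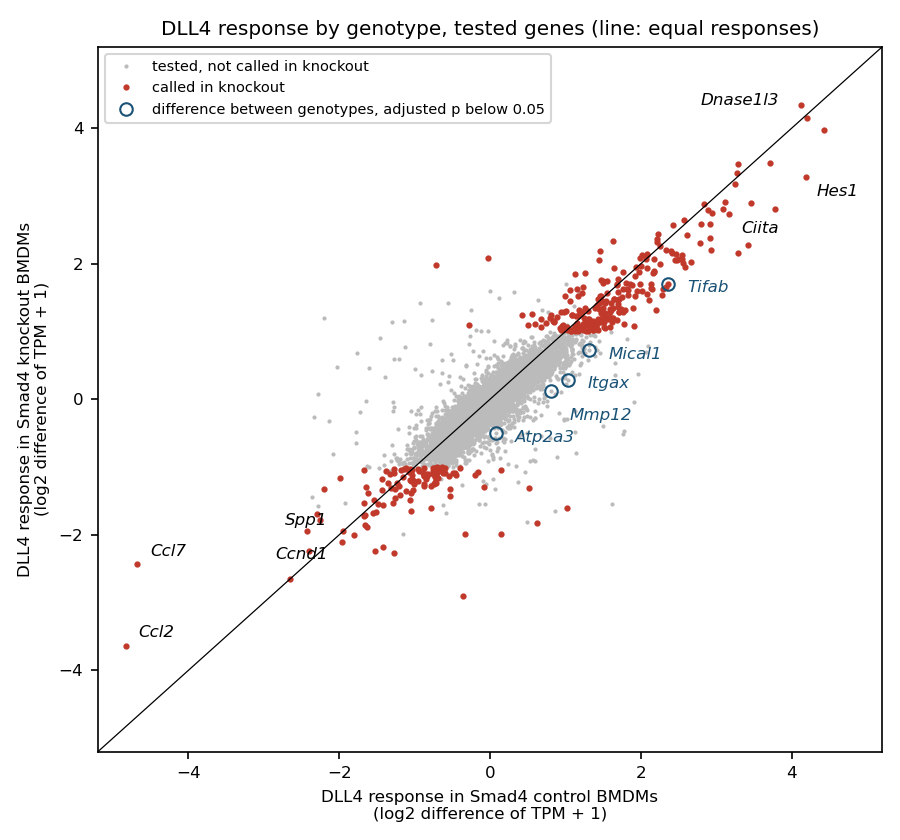
DLL4 response (log2 difference of TPM + 1) in Smad4 control (horizontal) and knockout (vertical) BMDMs, 1 point per tested gene, with genes called in knockout cells in red and the line of equal responses. Most red points lie near the line, and the 5 circled genes that passed the test of the difference at any fold lie below it.

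Much of the response was also seen in 2 experiments on C57BL/6J cells that carry no floxed Smad4 allele per their labels, each tested in its own table. DLL4 for 24 h on C57BL/6J BMDMs raised 242 of 10908 genes (2.22%) and lowered 58 (0.532%). Over the 10102 genes tested in both, 154 of 224 knockout risers rose there too (68.8%, and 67.5% of the 228 C57BL/6J risers), and 25 of 116 that fell (21.6%, and 49% of 51). Trib3, a stress-response pseudokinase, was the exception in direction, at log2 differences of 1.28 in knockout cells and -1.22 in C57BL/6J cells. The untreated C57BL/6J libraries differed more from each other than those given DLL4 did, as given under processing. DLL4 for 48 h on bone marrow monocytes raised 931 of 10234 genes (9.1%) and lowered 1063 (10.4%). Over 9795 genes tested in both, 188 of 214 knockout risers rose in monocytes (87.9%, and 24% of 784), and 80 of 99 that fell also fell (80.8%, and 7.83% of 1022). The knockout risers Atf5, Ednrb, Fcrls, Gdf15, Gsta3 and Trib3 fell in monocytes, and Usp18 and Mir6999, lower in knockout BMDMs, rose there. Of the 227 genes that rose in knockout BMDMs 134 rose in all 4 experiments, and of the 121 that fell 18 fell in all 4. Over all genes tested, the share called ranged from 2.21% to 9.1% higher and from 0.532% to 10.4% lower between the experiments.

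Levels differed widely between these cultures for the same gene. Dnase1l3 with DLL4 was at 11.7 and 13.4 TPM in C57BL/6J BMDMs and at 457 and 422 in monocytes, against 24.0 and 25.0 in knockout BMDMs. Hes1 was at 10.2 and 9.09 TPM in C57BL/6J BMDMs and 97.6 and 101 in monocytes. Ciita with DLL4 reached 3.62 and 4.55 TPM in C57BL/6J BMDMs and 233 and 228 in monocytes, against 26.7 and 24.5 in knockout BMDMs. Ccl2 with DLL4 was at 27.0 and 34.0 TPM in C57BL/6J BMDMs, from 246 and 300.5 untreated, and at 1.07 and 1.13 in monocytes, from 109.7 and 142. Slc40a1 came to like levels everywhere, 684 and 678 TPM in C57BL/6J BMDMs, 719 and 738 in monocytes and 629 and 628 in knockout BMDMs. C57BL/6J and monocyte tables were made separately. The C57BL/6J BMDMs share the day of culture and the time with DLL4 with the knockout BMDMs, whereas both differ for the monocytes.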

How the data were processed

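RNA was measured by poly(A)-selected, dUTP strand-marked RNA-seq in mouse BMDM cultures, per the labels' protocols. The authors deposited TPM per gene. The submitters' processing notes name mm10, STAR and HOMER. For tool versions, strand settings and multiply mapped reads, the sources used here give nothing. Whole reads could be recovered from TPM and length (100% of low values, 20 reads or fewer, came within 0.1 of a whole number in all 20 libraries), and TPM per library summed to 548126 to 572195. No replicate pair was identical. The spread between the reads of a pair, as a chi-square per degree of freedom, was 27.89 in control BMDMs given TGF-beta. The other pairs of the 20 libraries lay between 1.89 and 4.59. It was 22.89 in untreated C57BL/6J BMDMs at 24 h and 2.48 in those given DLL4. The first pair enters the shared variance of the main model, and the second is the untreated arm of the C57BL/6J comparison. Their part in the calls was not tested separately.

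One limma 3.58.1 model (R 4.3.3) with a mean per group was fitted to log2(TPM + 1) over the 20 libraries, with variances following the mean, for genes that 2 or more libraries held at 4 TPM or above. The pseudocount of 1 TPM understates changes of low genes. A low gene can pass the filter through groups where it is high, so list counts and medians can lean towards risers. Differences between genotypes were interaction terms. C57BL/6J BMDMs (18 libraries) and bone marrow monocytes (10 libraries) were fitted likewise in their own tables. Standard errors are moderated. Called means an adjusted p below 0.05 and 2-fold. The steps were tested on simulated reads with the same spread setting for all genes and changes above 2-fold in genes of 10 TPM or more. The simulation did not cover changes in lower genes, smaller changes or pairs of unequal spread.

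Named genes are Smad4, the 15 called genes each way that changed most (mean of 10 TPM or more in the higher group, no overlap), at most 4 called members of a list each way, up to 6 called each way in the difference between genotypes, and Notch genes. Others were named after their values were seen. Small RNAs and transcripts without a gene name were left aside. The members, the 35 lists (627 of 633 genes listed in the table) and the tests were chosen with earlier results of these data known. Alternatives were a pseudocount of 0.25, no filter, a filter of 10 TPM, quantile normalization, a replicate block, the knockout libraries alone, the untreated and DLL4 libraries alone, limma-voom on recovered reads and each untreated or DLL4 library left out. Promoter windows are those of RefSeq on GRCm38.p6, 300 bases each. Python 3.11.15, pandas 2.3.3, numpy 2.4.6 and matplotlib 3.10.9 were used.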

Additional observations from a re-analysis of the deposited data

Results flagged for a closer look

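In 5 genes the DLL4 response differed between Smad4 knockout and control BMDMs by the test of the difference itself (limma, Benjamini-Hochberg adjusted over 10267 genes). The knockout minus control log2 responses were -0.76 ± 0.10 (SE) for Itgax (adjusted p = 0.024), -0.58 ± 0.08 (SE) for Atp2a3 (0.024), -0.66 ± 0.09 (SE) for Tifab (0.024), -0.60 ± 0.09 (SE) for Mical1 (0.024) and -0.69 ± 0.10 (SE) for Mmp12 (0.026). All 5 calls were lost in 7 of 8 runs that left out 1 untreated or DLL4 library, and limma-voom on recovered reads called 24 genes. All 5 are below 2-fold, and the control libraries show the higher response in each. Groups of 2 libraries are too small for a check of single libraries against their group.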

How the results depend on the processing

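The count of risers stayed within 1.5 times of 227 under each alternative run (223 to 230 with 1 library left out). Genes that fell numbered 121, 118 to 162 with 1 library left out and 197 by limma-voom on recovered reads. Differences between genotypes of at least 2-fold numbered 0, against 3 with no filter, 1 with the untreated and DLL4 libraries alone, 1 by limma-voom and 0 to 2 with 1 library left out (2 without knockout DLL4 replicate 2). At any fold 5 passed, against 11 with a pseudocount of 0.25, 13 with no filter, 17 with a filter of 10 TPM, 30 with the untreated and DLL4 libraries alone, 24 by limma-voom and 0 to 15 with 1 library left out (15 without knockout DLL4 replicate 2). Leaving a library out leaves fewer samples; for the other changes the cause was not tested. Of 101 named and listed called genes, 89 kept their call under each alternative that tested them, and no direction turned. With the replicate block 231 genes rose, 121 fell and 5 differed between genotypes at any fold. The numbers are not taken as pairs, since deviations of same-numbered libraries correlated at only -0.055 to 0.091 and the labels name no pairing. A group left with a single library takes its spread from the other groups. With 2 libraries a group, and few reads for low genes such as Clec4f, small changes may be missed.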

Other observations

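Some gene families outside the lists, picked after their values were seen, rose with DLL4 in Smad4 knockout BMDMs. Of 10 tested tetraspanins, also looked at, 2 rose (Tspan13 and Tspan15) and 0 fell. Guanylate-binding proteins are GTPases that act against pathogens inside cells. Only 6 of their 11 listed genes passed the filter and were tested, and all 6 rose. Gbp2 was at 5.08 and 5.07 TPM untreated and 24.5 and 22.2 with DLL4, Gbp9 at 4.05 and 4.16 and then 22.3 and 22.2, and Gbp3 at 6.39 and 7.45 and then 26.2 and 29.2, where 2.21% of all tested genes rose. By contrast, the interferon response list gained 1 gene (Cxcl10) of 24 tested, lost 1 (Usp18) and had a median log2 difference of -0.39. The 3 paired immunoglobulin-like receptor genes rose, with Pilra, the inhibitory one, at 12.1 and 15.4 and then 45.8 and 48.6 TPM and Pilrb1, an activating one, at 5.20 and 5.23 and then 24.5 and 25.9. Members of these families resemble each other, and reads may be shared among them. Cd86, a costimulatory ligand for T cells, went from 3.44 and 3.30 to 17.7 and 18.8 TPM, and Tmem176b and Tmem176a, ion channels of antigen-presenting cells, from 41.05 and 41.6 to 171 and 178 and from 12.7 and 13.0 to 54.3 and 46.2.

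Of the 348 called genes, 22 are small RNAs (9 higher and 13 lower). How reads of host genes were counted for them is not known.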
